A study of Arabidopsis thaliana with 8 samples.

Results

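The 31 genes described here are protein-coding genes of the Arabidopsis thaliana chloroplast genome. Most encode parts of its own gene expression machinery, and 7 have other roles. The set is not all of that machinery, and rps12, for example, is not in it. The 31 genes comprise 11 small-subunit (rps) and 9 large-subunit (rpl) ribosomal protein genes and the 4 RNA polymerase genes rpoA, rpoB, rpoC1 and rpoC2. The other 7 are matK, clpP, accD, cemA, ccsA, ycf1 and ycf2. They were taken by locus identifier from the 88 chloroplast loci with a coding length, among 27416 loci in the deposited tables. Arabidopsis was sampled in darkness and under a blue light condition, and 2 ribosome footprint and 2 mRNA libraries stand for each condition, 8 in all. The labels give no genotype, tissue, plant age, light intensity or duration. They do not say whether replicates came from separate plants, so p-values measure only the spread between these libraries.

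The chloroplast keeps a small genome of bacterial descent and translates it on its own bacterial-type ribosomes, whose proteins are encoded partly in the chloroplast and partly in the nucleus. A plastid-encoded RNA polymerase, built from the rpo products and guided by nuclear-encoded sigma factors, transcribes many of the photosynthesis genes. In ribosome profiling, RNA is digested down to the pieces shielded by ribosomes, and these footprints are counted per coding sequence.

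The mRNA libraries held 688630 to 847469 counts and the footprint libraries 2888624 to 4919808. Chloroplast loci took 45.2 to 48.7% of the mRNA counts and 0.739 to 0.965% of the footprint counts, so the 31 genes rest on 161431 to 181148 mRNA counts but only 1263 to 1897 footprint counts per library. The mRNA of the light-induced nuclear gene ELIP1 stood at 12.9 ± 4.99 counts per 1000000 (CPM) in darkness and 997 ± 24.3 CPM under blue light (SD, n = 2), which checks the light labels. Genes repeated in the inverted repeat of the chloroplast genome hold near-equal counts at both copies: rpl23 and ycf2 had equal counts in 7 of 8 libraries, and rps7 and rpl2 in 5. Reads of these genes are uncertain in origin, and the first copy stands for each here. The labels do not state strand, so reads of a gene and of an antisense or overlapping transcript cannot be told apart.

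The 31 genes held a large share of the chloroplast counts of the mRNA libraries in both conditions but a small share of the chloroplast footprint counts. These are shares of counts, and whether they stand for mRNA abundance was not tested. Their summed share of chloroplast mRNA counts was 46.92% and 46.94% in the dark libraries and 48.10% and 48.10% in blue light. The means were 46.9% ± 0.0099 and 48.1% ± 0.00081 (SD, n = 2), a difference of 1.17 percentage points with no overlap. Such small SDs from 2 libraries are no measure of precision. Over the 31 genes, mRNA replicates differed beyond sampling noise, with a chi-square per degree of freedom of 12.1 in darkness and 16.0 under blue light. The share of rpoA alone went from 7.80% ± 0.404 to 9.15% ± 0.440 (SD, n = 2). Of the 31 single genes, 3 had higher mRNA shares without overlap and 10 had lower ones. Among the 52 other chloroplast loci with counts, 17.3% were higher and 28.8% lower. This denominator counts both inverted-repeat copies of a gene, while the 31 genes enter with the first copy only. Without the second copies, the means were 58.9% ± 0.576 and 60.1% ± 0.217 (SD, n = 2). Among all chloroplast footprint counts, the share of the 31 genes was 6.09% and 5.83% in the dark and 4.55% and 4.57% in blue light. The footprint share was therefore lower in both blue-light libraries than in either dark library, by 1.40 points between means of 5.96% ± 0.186 and 4.56% ± 0.0153 (SD, n = 2). With 2 libraries against 2, a two-sided exact permutation test cannot give a p below 0.333, so neither difference in the summed share was tested. In such bulk libraries, fewer cells of a type and less RNA per cell cannot be told apart.

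Higher shares of 2 photosynthesis genes in the same denominator accompanied the lower footprint share in blue light. The share of rbcL, which encodes the large subunit of Rubisco, went from 43.9% ± 0.348 to 56.3% ± 0.501 of chloroplast footprints, and that of psbA, which encodes the D1 protein of photosystem II, from 0.621% ± 0.0595 to 2.24% ± 0.136 (SD, n = 2). With both left out of the denominator, the 31 genes took 10.9% and 10.6% in the dark and 10.8% and 11.1% in blue light. On that scale the groups overlapped, and the difference of 0.259 points was opposite in sign and near the SDs of 0.256 and 0.206 points. Statements on direction below therefore name the scale.

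**Figure D1:**
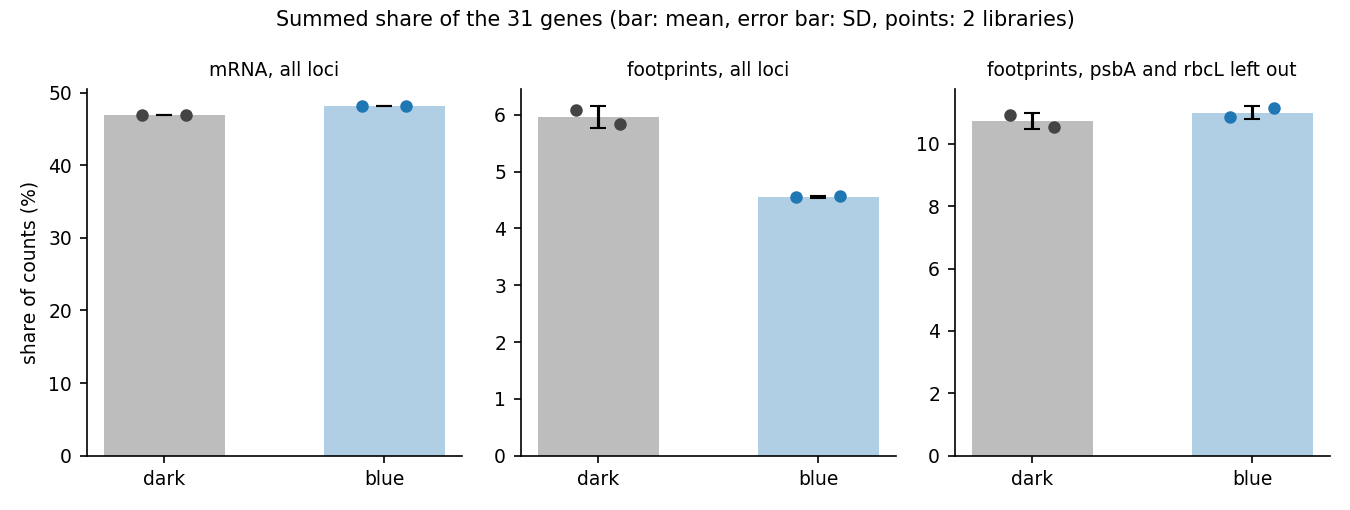
Summed share (%) of the 31 genes among mRNA counts and footprint counts of all chloroplast loci, and among footprint counts without psbA and rbcL; bars are means, error bars SDs and points the 2 libraries of each condition. The footprint share was 5.96% in the dark and 4.56% in blue light among all chloroplast counts but stood at 10.7% and 11.0% once psbA and rbcL were left out, and the 3 vertical axes differ in range.

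By role, the mRNA share of the small-subunit genes was 7.89% ± 0.0713 in darkness and 7.74% ± 0.176 under blue light, and that of the large-subunit genes 3.27% ± 0.0553 and 3.34% ± 0.0154 (SD, n = 2). The 4 polymerase genes held 15.1% ± 0.128 and 16.3% ± 0.476, and the 7 other genes 20.7% ± 0.134 and 20.7% ± 0.636 (SD, n = 2). In footprints the polymerase genes held only 0.517% ± 0.025 and 0.387% ± 0.0315, against 1.90% ± 0.14 and 1.53% ± 0.0206 for the small-subunit, 1.86% ± 0.0809 and 1.40% ± 0.0612 for the large-subunit and 1.68% ± 0.00989 and 1.24% ± 0.00615 for the other genes (SD, n = 2). All 4 roles thus had lower footprint shares of all chloroplast counts in blue light, with no overlap between conditions. With psbA and rbcL left out, the differences were 0.271 points for the small subunit, 0.0239 for the large subunit, 0.00234 for the polymerase and -0.038 for the other genes. The remaining counts lay mostly in 46 photosynthesis genes, at 31.8% and 30.9% of mRNA and 92.1% and 94.0% of footprints. Apart from rbcL and psbA, the other 44 photosynthesis genes went from 47.6% ± 0.283 to 35.4% ± 0.789 of all chloroplast footprints (SD, n = 2). In chloroplast mRNA counts, rbcL held only 1.37% ± 0.209 in darkness and 0.961% ± 0.0437 under blue light (SD, n = 2). The mRNA share of psbA was 0.635% ± 0.0676 and 0.523% ± 0.0536 (SD, n = 2).

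**Figure D2:**
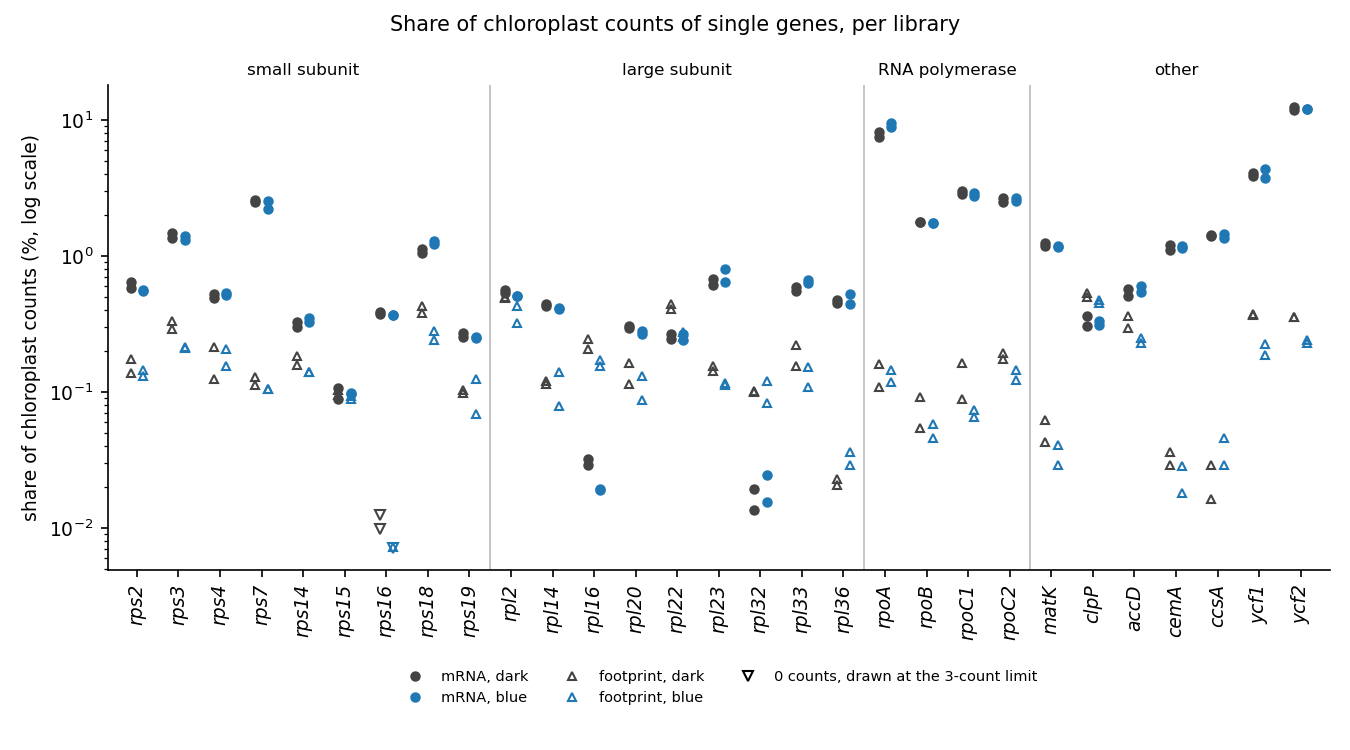
Share of chloroplast counts (%, log scale) of single genes in each library, with filled circles for mRNA, open triangles for footprints, grey for dark and blue for blue light; inverted triangles mark 0 counts, drawn at the share that 3 counts would give. Footprint shares lay below mRNA shares for 26 of all 31 genes in the dark, and rps16 has mRNA shares of 0.366% to 0.388% with 0 footprints in 3 libraries.

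Levels per length were compared as counts per kb of coding length per 1000000 chloroplast counts. In dark mRNA they ranged from 811 for rpl16 to 81202 for rpoA. In dark footprints they ranged from 0 for rps16 to 14533 for rps18, around a median of 3476. The gene with the highest mRNA level per length, rpoA (ATCG00740), which encodes the alpha subunit of the polymerase, had a footprint level of only 1402 ± 387 in darkness and 1370 ± 180 under blue light (SD, n = 2). The lowest footprint level among the polymerase genes was that of rpoB (ATCG00190), the beta subunit, at 229 ± 83.8 and 162 ± 27.3 (SD, n = 2). Long ycf2 (ATCG00860) and ycf1 (ATCG01130), which encode components of the protein import machinery of the chloroplast envelope, had mRNA levels per length of 17646 ± 630 and 7435 ± 338 in the dark, and footprint levels of 519 ± 3.94 and 692 ± 5.91 (SD, n = 2). Together ycf2, ycf1 and rpoA held 23.9% of dark and 25.2% of blue-light chloroplast mRNA counts, but 0.859% and 0.573% of the footprint counts.

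Neighbouring genes had unlike mRNA levels. A ribosomal protein gene cluster includes rpl23, rpl2, rps19, rpl22, rps3, rpl16, rpl14, rpl36 and rpoA, in their order in the RefSeq annotation of TAIR10.1. Along it the dark mRNA level per length went from 25549 ± 2115 at rpl23 to 811 ± 52.5 at rpl16 and stood at 81202 ± 4205 at rpoA, at the other end (SD, n = 2). The footprint level at the same genes lay between 1402 at rpoA and 9447 at rpl22 in the dark, and between 1370 at rpoA and 5862 at rpl22 in blue light. The mRNA profile of the cluster thus had a wider range than its footprint profile in both conditions. A second run holds rpoB, rpoC1, rpoC2 and rps2. In its dark mRNA the levels per length were 5536 ± 6.63, 14531 ± 643, 6275 ± 351 and 8925 ± 649, and in dark footprints 229 ± 83.8, 624 ± 259, 449 ± 32.3 and 2296 ± 385 (SD, n = 2). The ribosomal protein gene rps2 (ATCG00160) at the end of that run had the highest footprint level of the 4, above each polymerase gene in every dark library.

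**Figure D3:**
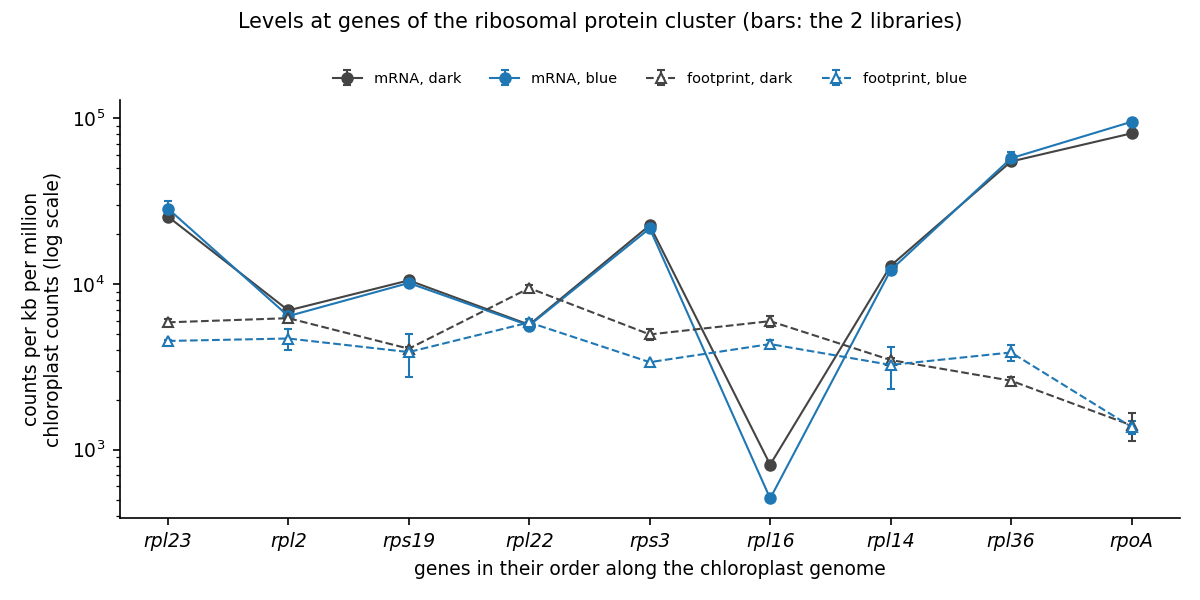
Counts per kb of coding length per 1000000 chloroplast counts (log scale) for 9 genes of the ribosomal protein cluster in genome order, as mean with bars spanning the 2 libraries, for mRNA (circles) and footprints (triangles) in the dark (grey) and blue light (blue). The mRNA level spans 811 at rpl16 to 81202 at rpoA in the dark, while dark footprints stay between 1402 and 9447.

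The first comparison asked whether mRNA differed between blue light and darkness. None of the 31 genes passed edgeR's quasi-likelihood test with Benjamini-Hochberg adjustment over all 7822 loci tested, where 3.90% of loci passed. At an unadjusted p under 0.05 there were 4 genes, rps18, rpl23, rpl33 and rpoA, where 13.4% of all tested loci had such a p, and the DESeq2 Wald test called 0. The fitted log2 fold changes of 30 genes were above 0 and that of rpl16 was below, with a median of 0.25 over the 31 against 0.026 over all loci tested. Of 45 photosynthesis genes of the chloroplast, 38 were above 0 and 7 below, at a median of 0.23. When libraries were instead scaled to their chloroplast counts, 12 of the 31 genes were above 0 and 19 below, at a median of -0.02, while the median of all loci shifted by -0.27. The 2 conditions did not overlap, higher in blue light, for 24 of 31 genes and for 28 of the 45 photosynthesis genes. Over all tested loci, 22.5% were higher without overlap. The conditions did not overlap, lower in blue light, for 1 of the 31 genes and 1 of the 45, where 19.9% of all tested loci were lower. As shares of chloroplast counts, 3 genes, rps18, rpl33 and rpoA, were higher without overlap and 10 were lower, where 17.3% of the 52 other chloroplast loci with counts were higher and 28.8% lower.

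Among the polymerase genes, rpoA mRNA stood at 36702 and 34612 CPM in the dark and 49799 and 51337 CPM in blue light. Both blue-light libraries were higher than both dark ones. The log2 fold change was 0.50 ± 0.15 with an adjusted p of 0.0623 in edgeR. It passed with DESeq2 size factors (adjusted p = 0.0384) and when scaled to chloroplast counts (0.23 ± 0.06, adjusted p = 0.0422), and over the 13 alternatives its adjusted p ranged from 0.0384 to 0.440. The other 3 polymerase genes had values of 0.24 ± 0.17 for rpoB, 0.22 ± 0.17 for rpoC1 and 0.28 ± 0.17 for rpoC2.

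The small-subunit genes had a median mRNA change of 0.22, with the largest value, 0.48 ± 0.18, at rps18. The gene rps18 (ATCG00650) had 5166 and 4786 CPM in the dark and 6454 and 7413 CPM in blue light, higher in both blue-light libraries, with an adjusted p of 0.168 in edgeR. The large-subunit genes had a median of 0.25, and rpl23, rpl33 and rpl32 were at 0.43 ± 0.20, 0.45 ± 0.18 and 0.57 ± 0.32. The gene rpl16 (ATCG00790), whose coding sequence is split by an intron, had 143 and 137 CPM in the dark and 101 and 111 CPM in blue light. Both blue-light values were lower, at -0.40 ± 0.28 with an adjusted p of 0.618 in edgeR. The 7 other genes lay between 0.21 ± 0.20 for clpP, the proteolytic subunit of the Clp protease, and 0.37 ± 0.19 for accD, a subunit of the plastid acetyl-CoA carboxylase of fatty acid synthesis. The intron maturase gene matK, the envelope protein gene cemA and the cytochrome c assembly gene ccsA were at 0.22 ± 0.17, 0.28 ± 0.17 and 0.26 ± 0.18.

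The second comparison asked the same of footprints. The filter left 27 of 31 genes, and rps16, rpl36, cemA and ccsA, with 2 to 39 footprint counts over all 4 libraries, could not be tested. Of the 27, 8 fell in blue light and 0 rose in edgeR's quasi-likelihood test, where 37.8% of the 15788 loci tested changed, 16.9% falling and 20.9% rising. They were rps3, rps18, rpl2, rpl22, rpoC1, accD, ycf1 and ycf2. The median log2 fold change of the 27 was -0.34 against -0.018 over all loci tested, with 23 below 0 and 4 above. Groups did not overlap for 15 genes, all lower in blue light, where 33.9% of all tested loci were lower and 33.6% higher without overlap. The falls hold for footprints scaled by TMM to all genes. Scaled to chloroplast counts, 5 fell, and scaled to chloroplast counts without psbA and rbcL, 0 passed, 14 of 27 lay above 0, the median was 0.03 and the median of all loci shifted by 0.37. The DESeq2 Wald test called 1, ycf1.

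Of the 10 small-subunit genes tested, rps3 and rps18 fell, and the median was -0.18. Footprints of rps18 stood at 33.0 and 33.7 CPM in the dark and 22.0 and 22.4 CPM in blue light, from 77 to 115 counts per library. Both blue-light libraries lay below both dark ones, a change of -0.59 ± 0.15 (edgeR adjusted p = 0.0025), while its mRNA value was above 0. Footprints of rps3 (ATCG00800) stood at 25.9 and 25.8 CPM in the dark and 19.6 and 16.9 CPM in blue light. Its groups did not overlap either, with a change of -0.49 ± 0.17 (edgeR adjusted p = 0.0221). That call ended without dark footprint replicate 1, dark replicate 2 or blue replicate 2, at adjusted p of 0.0774, 0.083 and 0.118. The largest value above 0 in the family was that of rps4 (ATCG00380), at 16.5 and 11.1 CPM in the dark and 18.9 and 12.5 CPM in blue light. Its groups overlapped, at 0.23 ± 0.23 with an adjusted p of 0.450 in edgeR. Of the others, rps2, rps7, rps14, rps15 and rps19 lay between -0.22 ± 0.21 and 0.07 ± 0.29.

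The small-subunit gene rps16 (ATCG00050) had 0 footprint counts in both dark libraries and 0 and 2 in blue light. Its mRNA was counted 1496 and 1365 times in the dark and 1329 and 1228 times in blue light, so the mRNA was present in every library while footprints were at or near 0. A count of 0 allows a share of up to 0.0125% and 0.00985% of chloroplast footprints in the 2 dark libraries and 0.00719% in blue-light replicate 1, by counting error only, against an mRNA share of 0.381% ± 0.0094 in the dark (SD, n = 2). As background, the intron of this gene has been reported not to be spliced in Arabidopsis thaliana.

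Of the 8 large-subunit genes tested, rpl2 and rpl22 fell, and the median was -0.36. Footprints of rpl22 (ATCG00810) stood at 34.6 and 36.6 CPM in the dark and 25.5 and 20.4 CPM in blue light. The blue-light values were lower without overlap, a change of -0.62 ± 0.15 (edgeR adjusted p = 0.0018), and the call held without each library in turn. Footprints of rpl2 (ATCG00830), which is repeated in the inverted repeat, stood at 38.8 and 43.7 CPM in the dark and 29.3 and 34.4 CPM in blue light. They were lower without overlap as well, at -0.39 ± 0.14 (edgeR adjusted p = 0.0294). Without blue footprint replicate 1 that value was -0.26 (adjusted p = 0.269) and without dark replicate 2 it was -0.29 (adjusted p = 0.249). The gene rpl33 (ATCG00640) was at 17.1 and 13.8 CPM in the dark and 9.91 and 12.2 CPM in blue light, lower without overlap, at -0.49 ± 0.22 with an adjusted p of 0.0765 in edgeR. Low-count rpl32 (ATCG01020) was at 0.11 ± 0.27 with overlapping groups. The other 4 lay between -0.40 ± 0.20 for rpl16 and -0.12 ± 0.26 for rpl14.

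Of the 4 polymerase genes, rpoC1 (ATCG00180), which encodes the beta-prime subunit, fell, and the median was -0.45. Its footprints stood at 12.6 and 7.91 CPM in the dark and 6.83 and 5.24 CPM in blue light, from 18 to 39 counts per library. The blue-light values were lower without overlap, at -0.72 ± 0.28 (edgeR adjusted p = 0.0461). Without dark footprint replicate 1 the value was -0.35 (adjusted p = 0.523), without blue replicate 1 -0.94 (adjusted p = 0.0771) and without blue replicate 2 -0.57 (adjusted p = 0.211). The rpoA footprints, at 8.41 and 14.4 CPM in the dark and 13.2 and 9.61 CPM in blue light, overlapped, with a value of 0.01 ± 0.25. The value of rpoB was -0.52 ± 0.34 and that of rpoC2 -0.38 ± 0.22.

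Of the 5 other genes tested, ycf1, ycf2 and accD fell. Footprints of ycf1 stood at 28.5 and 33.1 CPM in the dark and 17.2 and 18.1 CPM in blue light. These groups were well apart, with a change of -0.81 ± 0.16 (edgeR adjusted p = 0.0002), the largest fall among the 27 genes. A shorter copy of part of this gene lies at the other border of the inverted repeat, so a part of its reads is of uncertain origin. Footprints of ycf2 stood at 27.5 and 31.9 CPM in the dark and 21.1 and 19.5 CPM in blue light, lower without overlap, at -0.54 ± 0.16 (edgeR adjusted p = 0.0078). Without dark footprint replicate 2 its value was -0.42 (adjusted p = 0.128). Footprints of accD (ATCG00500) stood at 23.0 and 32.5 CPM in the dark and 20.9 and 20.1 CPM in blue light. They were lower without overlap but with 1 dark library close to the blue-light values, at -0.44 ± 0.17 (edgeR adjusted p = 0.0447). Without dark replicate 2 the value was -0.15 (adjusted p = 0.660), and the call also ended without blue replicate 1 (adjusted p = 0.140) and blue replicate 2 (0.147). The gene clpP (ATCG00670) kept close levels of 41.4 and 44.3 CPM in the dark and 43.4 and 36.1 CPM in blue light, with overlap, at -0.10 ± 0.13. The value of matK was -0.45 ± 0.39, on 8 to 17 counts per library.

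**Figure D4:**
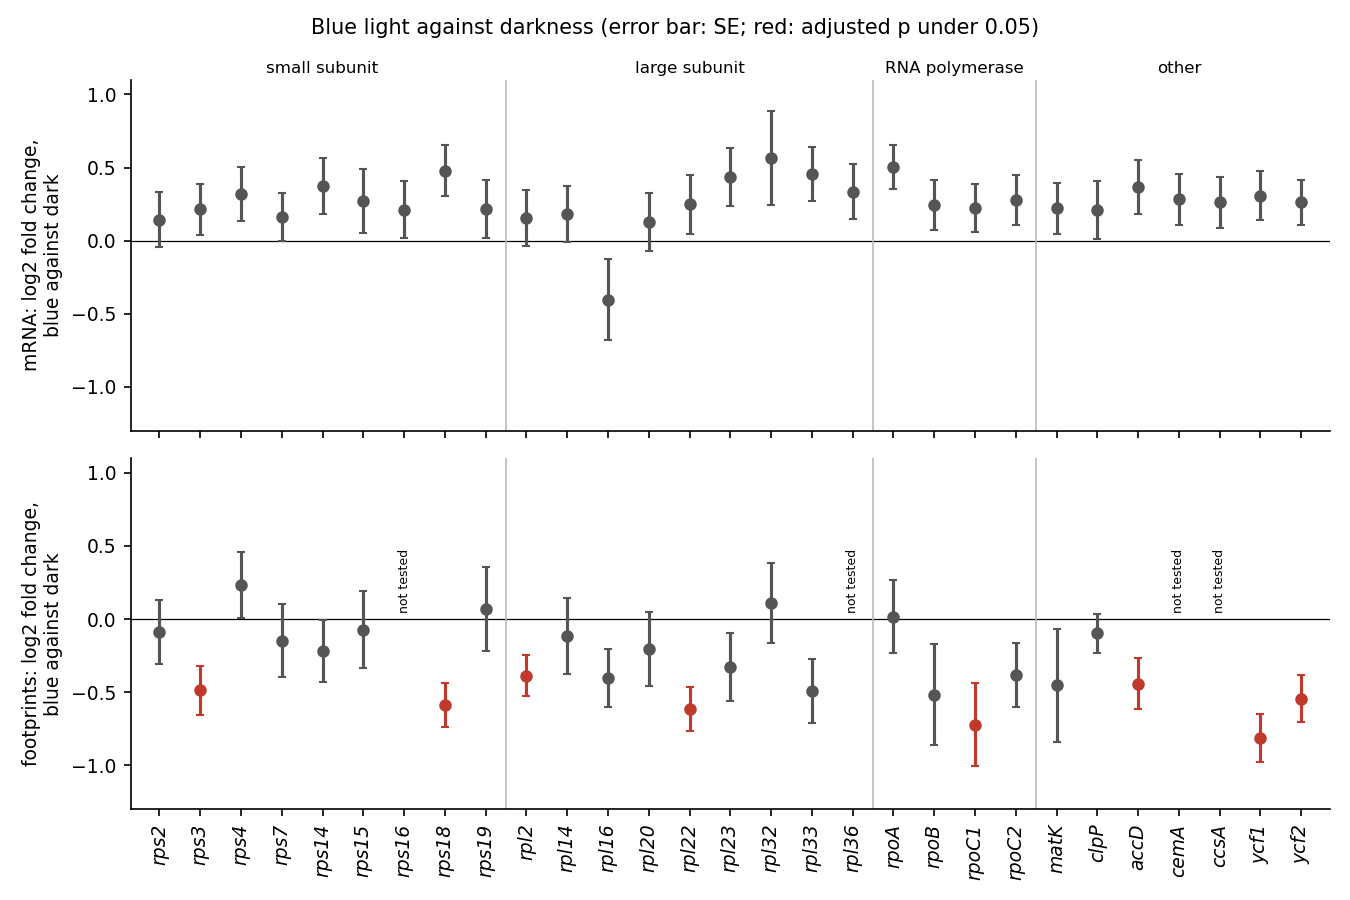
Fitted log2 fold change of blue light against darkness for single genes in mRNA (top) and footprints (bottom), with edgeR SEs as error bars and genes with an adjusted p under 0.05 in red, scaled by TMM to all genes. Of all 31 genes, 30 had mRNA values above 0 and none is red, whereas scaled to chloroplast counts 19 lie below 0; in footprints 23 of all 27 tested had values below 0 and 8 are red, whereas scaled to chloroplast counts without psbA and rbcL 14 lie above 0 and none passes.

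Beside these, 21 of 41 photosynthesis genes of the chloroplast fell in footprints and 2 rose, psbA by 1.88 ± 0.10 and rbcL by 0.41 ± 0.07. The median of the 41 was -0.40, close to the -0.34 of the 27 genes described here, and no difference between the 2 sets was tested.

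The third comparison took footprints relative to mRNA, the translational efficiency, tested as an assay-by-light interaction in a single model of the 8 libraries. The model used a spread per gene shared by both assays. The common dispersion, a measure of spread, was 0.0522 in the mRNA fit, 0.00226 in the footprint fit and 0.00442 in this model. SEs and p-values of efficiency in edgeR rest on that shared spread. All 27 tested genes had values below 0 with TMM scaling, at a median of -0.69 against -0.055 over the 6169 loci tested. Of 40 photosynthesis genes of the chloroplast, 38 were also below 0, at a median of -0.75, with 13 called lower and 1 higher. No difference between these sets was tested. In edgeR's quasi-likelihood test 5 of the 27 were lower in blue light and 0 higher. Over all loci 10.1% differed, 4.93% lower and 5.20% higher. Another 7 had only an unadjusted p under 0.05, which makes 12 of 27 with such a p, where 24.4% of all tested loci had one. Scaled to chloroplast counts, 0 passed, the median was -0.34 and 24 of 27 lay below 0, while the median of all loci shifted by 0.35. With psbA and rbcL also left out, 0 passed and 15 of 27 lay above 0, at a median of 0.09 and a shift of 0.78.

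The genes called were rps18 at -1.20 ± 0.29 (adjusted p = 0.0069), rpl22 at -1.0 ± 0.26 (0.0119), rpl33 at -1.08 ± 0.33 (0.0357), accD at -0.94 ± 0.29 (0.0378) and ycf1 at -1.25 ± 0.34 (0.0176), all in edgeR. In each, with TMM scaling, mRNA had a fitted value above 0 and footprints one below 0. Without blue footprint replicate 1 or dark footprint replicate 2 none of the 27 was called, and the adjusted p of the 5 genes lay between 0.0509 and 0.358. The calls of rps18 and ycf1 also ended without blue mRNA replicate 2 (0.0526 and 0.148), and that of rpl22 without blue footprint replicate 2 (0.159) or dark footprint replicate 1 (0.0874). Those of rpl33 and accD ended without blue footprint replicate 2 (0.0823 and 0.167), dark footprint replicate 1 (0.216 and 0.0534) and blue mRNA replicate 2 (0.0977 and 0.151), and that of rpl33 also without blue mRNA replicate 1 (0.0556). Not called were, among others, rpoC1 at -1.08 ± 0.46 and ycf2 at -0.94 ± 0.37, with adjusted p of 0.140 and 0.105 in edgeR.

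Within each condition, the footprint share of a gene divided by its mRNA share describes its relative occupancy, without the difference between the assays in total chloroplast reads. The assays were prepared differently, so the ratio has no absolute meaning and was not tested. Its median over the 31 genes was 0.270 in darkness and 0.207 under blue light, against 4.19 and 3.33 over the 46 photosynthesis genes. The lower value in blue light depended on the denominator: with psbA and rbcL left out of both shares, the median over the 31 genes was 0.476 in darkness and 0.492 under blue light, and their summed shares gave ratios of 0.224 and 0.225. With all chloroplast loci in the denominator, it was above 1 for 5 of the 31 genes in the dark and 4 in blue light, against 29 and 28 of the 46, and with psbA and rbcL left out it was above 1 for 8 and 7 of the 31. Low ratios were not particular to the 31 genes. With all chloroplast loci in the denominator, the ndh genes among the 46 lay between 0.0053 for ndhG and 0.246 for ndhA in the dark. The ratios that follow are on the scale of all chloroplast loci.

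The 31 genes differed among themselves by role. The 4 polymerase genes had the narrowest range, 0.0173 for rpoA to 0.0716 for rpoC2 in the dark and 0.0144 to 0.0520 in blue light. The large-subunit genes ranged from 0.0475 for rpl36 to 7.35 for rpl16 in the dark. The highest ratios were those of rpl16, at 7.35 in darkness and 8.55 under blue light, and rpl32, at 6.12 and 5.09, and these 2 genes also had the lowest mRNA levels per length. Of the rest, clpP was at 1.55 and 1.44, rpl22 at 1.66 and 1.04 and rps15 at 1.02 and 0.939. Of the small-subunit genes, rps2, rps3, rps4, rps14, rps18 and rps19 lay between 0.219 and 0.542 in the dark, and rps7 was at 0.0475. The genes cemA, ccsA and ycf2 were at 0.0283, 0.0162 and 0.0294 in the dark, at ranks 72, 74 and 71 from the top among the 77 chloroplast loci ranked.

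**Figure D5:**
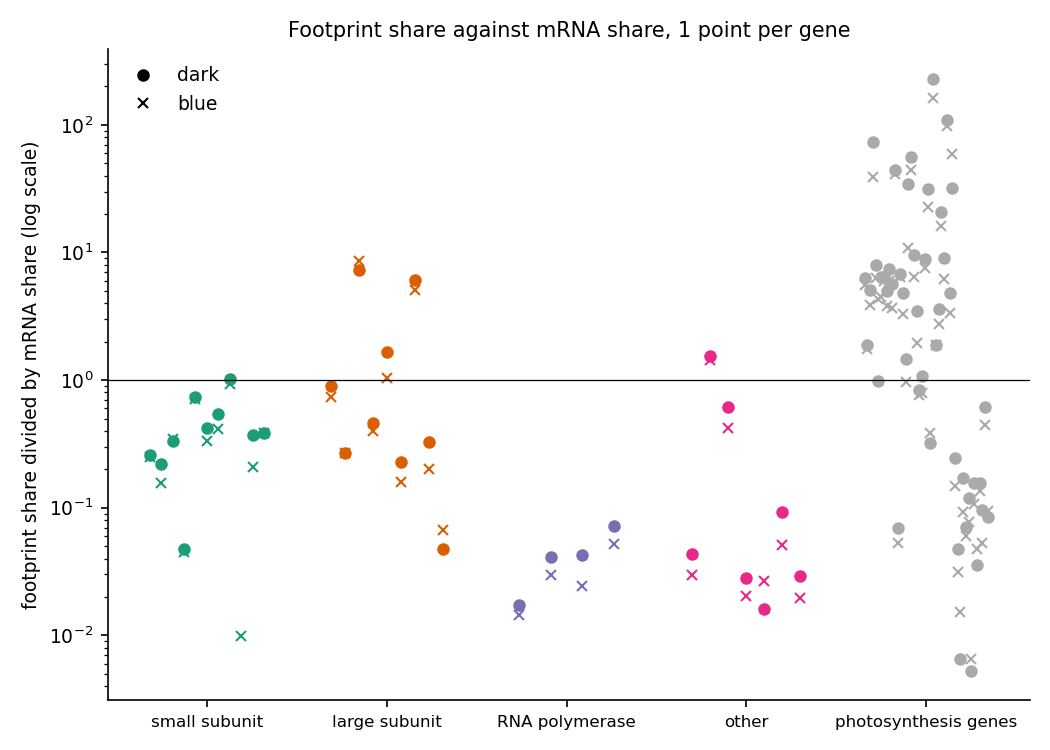
Footprint share divided by mRNA share of chloroplast counts (log scale), 1 point per gene and condition (circles dark, crosses blue light), by role, with the 46 photosynthesis genes in grey; the dark value of rps16, which is 0, cannot be drawn. The polymerase genes lie between 0.0144 and 0.0716, rpl16 and rpl32 above 5, and the photosynthesis genes from 0.0053 to 229.

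Nuclear genes whose products work with these chloroplast-encoded proteins were taken from lists written from general knowledge. In footprints 36 of 72 rose and 0 fell, where 20.9% of all loci rose and 16.9% fell, with a median of 0.25. They included 4 of 9 small-subunit and 16 of 24 large-subunit plastid ribosomal protein genes, 8 of 20 plastid transcription genes, 4 of 10 Clp protease genes, 1 of 4 acetyl-CoA carboxylase genes and 3 of 5 genes for protein import or cytochrome c assembly. With chloroplast scaling 18 rose and 0 fell, where 25.9% of all loci changed in either direction. With psbA and rbcL also left out 52 rose and 0 fell. On that scale 35.4% of all loci changed and the median of all loci shifted by 0.37, a shift the partners share by construction. Without dark footprint replicate 2 the median of the partners was 0.29.

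The sigma factor genes SIG5 (AT5G24120) and SIG1 (AT1G64860), whose products guide the plastid-encoded polymerase to promoters, rose by 5.36 ± 0.15 and 1.92 ± 0.13 in footprints. Among ribosomal protein genes PRPL19A (AT4G17560) and PRPL29 (AT5G65220) rose by 1.25 ± 0.13 and 1.05 ± 0.08, and PRPS9 (AT1G74970) and PRPS5 (AT2G33800) by 0.63 ± 0.08 and 0.37 ± 0.07. The Clp chaperone genes CLPC1 (AT5G50920) and CLPC2 (AT3G48870) rose by 1.29 ± 0.07 and 1.13 ± 0.08, and CAC2 (AT5G35360), the biotin carboxylase subunit that works with the accD product, by 0.48 ± 0.08. CCS1 (AT1G49380), a partner of the ccsA product, rose by 1.43 ± 0.15, and TIC100 (AT5G22640), a partner of the ycf1 product in the import translocon, by 1.03 ± 0.11. Of these, PRPS5 and CAC2 lost their call when scaled to chloroplast counts (adjusted p = 0.229 and 0.0920).

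In mRNA 11 of 58 tested partners rose and 0 fell, where 2.85% of loci rose and 1.05% fell, with a median of 0.61 against 0.25 for the 31 chloroplast genes. The number was 6 when scaled to chloroplast counts, 6 with the DESeq2 Wald test and 6 without blue mRNA replicate 2, and 7 without dark mRNA replicate 1. PRPL3 (AT2G43030), PRPL6 (AT1G05190), CLPP5 (AT1G02560) and PRPS10 (AT3G13120) rose by 2.83 ± 0.34, 1.94 ± 0.30, 2.59 ± 0.38 and 1.8 ± 0.26. SIG5 rose by 4.79 ± 0.74, a call lost without blue mRNA replicate 2 (4.39, adjusted p = 0.119). FSD2 (AT5G51100), an iron superoxide dismutase of the plastid transcription complex, CLPC1 and PRPS6 (AT1G64510) rose by 2.39 ± 0.56, 1.17 ± 0.31 and 1.35 ± 0.37. Without dark mRNA replicate 1 their adjusted p was 0.0949, 0.367 and 0.372, and without blue mRNA replicate 2 it was 0.147, 0.383 and 0.546. In efficiency 4 of 58 partners were higher and 13 lower with TMM scaling, where 5.20% of all loci were higher and 4.93% lower. Scaled to chloroplast counts without psbA and rbcL, 10 partners were higher and 4 lower. On that scale 22.1% of all loci differed and the median of all loci shifted by 0.78, a shift the partners share by construction.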

How the data were processed

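Ribosome footprints and mRNA were counted in 8 libraries, 2 for each assay and condition. The authors deposited raw counts, given as whole numbers for each transcript model; per the submitters' processing notes, CASAVA 1.8, Bowtie2 2.1.0, TopHat2 2.0.9 and the TAIR10 build were used, in roles that are not given, and the counting tool is not given in the sources used here. A further deposited column is unlabelled in the files; for 25 of the 31 genes it equals the RefSeq TAIR10.1 gene length in codons less 10, and it served, in other units, as coding length. Of 41671 models, 6285 without that value held 0 counts and were left out. Names of the 31 loci are the standard chloroplast gene names, all 31 of which are plastid symbols in RefSeq; coordinates are not printed because the releases differ, and no sequences were used here.

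Blue light was compared with darkness with edgeR 4.0.16 in R 4.3.3 (TMM scaling, filterByExpr with a minimum count of 10, quasi-likelihood F-test, two-sided, Benjamini-Hochberg adjustment over all loci tested, threshold 0.05), in mRNA, in footprints and, for efficiency, as an assay-by-light interaction. SEs are the fold change divided by the root of F. Alternatives used DESeq2 1.42.0, limma 3.58.1, other scalings and filters, a replicate block, and each library left out. Replicates differed beyond sampling noise over all loci (chi-square per degree of freedom 1.38 to 2.93), and over the 31 genes more so in mRNA (12.1 and 16.0); footprints of the 31 genes gave 1.13 and 1.25, within sampling noise. Replicates were kept as separate samples. The 31 genes, psbA, rbcL, and the 2 called partners per list and assay with the largest change were to be named; 2 of the 31 enter every count and median but their single values are not reported here. The rule for the 31 genes uses locus identifiers and no measured value, but the genes and lists were chosen with earlier results of these data known.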

Additional observations from a re-analysis of the deposited data

Results flagged for a closer look

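In 5 genes the change between darkness and blue light differed between the assays, by the edgeR test of the interaction: rps18 (-1.20), rpl22 (-1.0), rpl33 (-1.08), accD (-0.94) and ycf1 (-1.25), each the log2 change of footprints less that of mRNA. The difference was at its smallest when libraries were scaled to chloroplast counts without psbA and rbcL, at -0.41, -0.24, -0.30, -0.14 and -0.45, where none passed (edgeR adjusted p of 0.369 to 0.802). The share of chloroplast footprints held by rbcL and psbA moved with these values, and its part in them was not tested.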

How the results depend on the processing

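The number of genes called depended on the scaling. In mRNA, 0 of 31 were called higher, and 1 with DESeq2 size factors or scaling to chloroplast counts. In footprints, 8 were called lower, 5 with scaling to chloroplast counts, 0 with psbA and rbcL also left out (a scaling added after seeing the data), 1 with the DESeq2 Wald test, and 4 to 7 without 1 library. In efficiency, 5 were called lower, 0 with either chloroplast scaling, 3 with TMM on nuclear loci, with no filter or with the replicate block, 10 with the DESeq2 Wald test, 11 with limma-voom, and 0 to 9 without 1 library. The replicate block gave 0 in mRNA and 8 in footprints. Deviations of libraries with the same replicate number were nearly uncorrelated (correlations of -0.0021 to 0.023). These values showed no pairing by replicate number, but cannot tell whether such libraries shared plants or a batch. The mRNA share difference of 1.17 points was 1.26 without second inverted-repeat copies and 0.936 without psbA and rbcL; the footprint difference of -1.40 points was 0.259 without psbA and rbcL. The cause of these changes was not tested, but the last scaling differs by its own construction, since it removes rbcL and psbA. Among single genes, values called in neither setting changed sign 38 times in mRNA, 25 in footprints and 23 in efficiency; no called value did. Depth limits footprints most: 4 genes could not be tested, and the polymerase and matK values rest on 8 to 61 counts a library.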
